A study of Mus musculus with 55 samples.

Results

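H3K27ac, the acetylation of lysine 27 on histone H3, was mapped by ChIP-seq in livers of untreated wild type mice (WT, 3 livers) and of Setd8-LKO mice 24 h after a single dose of TCPOBOP at 3 mg/kg (3 livers). The regions described here are all peaks of the 2 H3K27ac lists, 27983 for WT and 27752 for Setd8-LKO, and make up 55735 of the 173819 regions in all peak and island lists of the study. The mice were C57Bl6 males, 45 to 50 days old. In Setd8-LKO mice, exon 7 of both Setd8 alleles is floxed and is removed by Cre under the albumin promoter. The authors describe the inactivation as specific to hepatocytes. Other cells of the liver also carry the floxed alleles, and their state was not checked here. Genotype and treatment change together between the 2 lists and cannot be told apart. The controls are labelled untreated, but corn oil is given as the vehicle in the methods and DMSO as the mock treatment in the reporting form. Because whole liver was used, fewer cells of a type and less mark per cell cannot be told apart either.

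H3K27ac is written by the acetyltransferases p300 and CBP and marks the nucleosomes that flank active promoters and active enhancers. Setd8, encoded by Kmt5a, is the enzyme that places the first methyl group on lysine 20 of histone H4. TCPOBOP is an agonist of the nuclear receptor CAR, which binds direct repeats of a short element as a heterodimer with RXR and induces drug metabolism genes such as Cyp2b10. In adult liver, enhancers of hepatocyte genes are bound by FOXA, HNF4 and C/EBP factors, and those of growth hormone dependent genes by STAT5.

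Each condition has a single list, so a difference between the lists has no replicate spread and no test, and called means past a fixed overlap or fold. A peak that shared 1 bp or more with the second list was termed kept, a WT peak that shared none was termed lost and such a Setd8-LKO peak gained. The summits of the gained and the lost peak with the highest fold enrichment, and of the kept pairs with the largest rise and the largest fall, are printed as plus strand sequence of GRCm38 (mm10, RefSeq), 300 bases or, where some of these were annotated as untranslated, the longest remaining stretch. For kept pairs the summit of the WT peak was used. Every CG dinucleotide is in capitals, since CpG content is compared between the classes of peaks.

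Gained, Rap1gap promoter, chr4:137664693-137664992: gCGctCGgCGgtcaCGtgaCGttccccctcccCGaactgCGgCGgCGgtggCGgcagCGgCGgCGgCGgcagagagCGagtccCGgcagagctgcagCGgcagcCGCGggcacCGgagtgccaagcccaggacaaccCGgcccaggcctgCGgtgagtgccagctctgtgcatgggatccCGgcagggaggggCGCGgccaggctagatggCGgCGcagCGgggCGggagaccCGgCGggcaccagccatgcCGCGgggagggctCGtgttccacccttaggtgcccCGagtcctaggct
Lost, pseudogene Gm16464 inside Trim30d, chr7:104501937-104502236: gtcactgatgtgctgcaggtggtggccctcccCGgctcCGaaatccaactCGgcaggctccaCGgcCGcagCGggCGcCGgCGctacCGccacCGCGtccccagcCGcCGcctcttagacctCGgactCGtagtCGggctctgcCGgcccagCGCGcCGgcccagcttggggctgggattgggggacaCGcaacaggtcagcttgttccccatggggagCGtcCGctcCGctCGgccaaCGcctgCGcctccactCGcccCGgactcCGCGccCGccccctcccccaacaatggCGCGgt
Kept with the largest rise, Lysmd2 promoter, chr9:75625765-75626059: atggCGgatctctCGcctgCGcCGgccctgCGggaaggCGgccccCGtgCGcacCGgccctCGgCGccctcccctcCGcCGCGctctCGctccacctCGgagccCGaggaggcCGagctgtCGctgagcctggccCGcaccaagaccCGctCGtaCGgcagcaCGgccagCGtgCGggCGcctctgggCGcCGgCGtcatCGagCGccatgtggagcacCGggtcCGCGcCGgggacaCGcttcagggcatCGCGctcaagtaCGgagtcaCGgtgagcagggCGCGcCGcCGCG
Kept with the largest fall, Stard3 promoter, chr11:98358509-98358691: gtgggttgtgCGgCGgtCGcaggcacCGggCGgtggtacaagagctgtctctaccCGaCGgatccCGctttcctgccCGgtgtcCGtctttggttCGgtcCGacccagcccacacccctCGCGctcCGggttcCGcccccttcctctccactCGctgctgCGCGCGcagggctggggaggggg

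The GC content of the 4 sequences was 75.3%, 73.0%, 76.3% and 71.0%, and they held 35, 35, 46 and 20 CG dinucleotides in the order printed. All 4 peaks lay within 1000 bp of a transcript start. Their CpG observed over expected ratios were 0.830, 0.896, 1.08 and 0.868, so the lost example is CpG-rich and untypical of lost peaks, of which 4.41% had a ratio above 0.6.

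Most H3K27ac regions of WT liver were also found in Setd8-LKO liver. Of the 27983 WT peaks, 21742 were kept (77.70%, 95% Clopper-Pearson interval 77.20 to 78.18) and 6241 were lost (22.3%). Of the 27752 Setd8-LKO peaks, 7073 were gained (25.5%, interval 24.97 to 26). The lists covered 19.09 Mb in WT and 20.71 Mb in Setd8-LKO and shared 15.15 Mb, which is 79.36% of the first and 73.15% of the second. These intervals cover counting error only. The share kept ran from 62.4% with a reciprocal overlap of 50% to 85.7% with a tolerance of 1000 bp.

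The share kept was larger among higher peaks. WT peaks were ranked into 4 groups by fold enrichment, the ratio of reads at the summit to the local background, and 51.7% of 6997 peaks were kept in the lowest group. The share was 67.0% in the next group and 92.1% in the one above it, and 6993 of 6994 peaks were kept in the highest group. Lost peaks had a median fold enrichment of 7.67 and a median length of 300 bp, against 14.9 and 610 bp for kept WT peaks. Gained peaks had medians of 8.06 and 339 bp, against 16.5 and 700 bp for kept Setd8-LKO peaks. Lost and gained regions were thus mostly low and short.

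The share kept also differed by position. WT peaks of which any base lay within 1000 bp of a transcript start, termed promoter peaks, were kept in 91.4% of 15739 cases. Peaks in introns were kept in 54.7% of 6606. Longer peaks reach a start more readily, and the part of length in these shares was not tested. Within the lowest group of fold enrichment, 67.5% of promoter peaks were kept and 45.0% of the others. Lost peaks were promoter peaks in 21.8% of cases and intronic in 48.0%. Gained peaks were promoter peaks in 34.6%, and kept WT peaks in 66.1% and 16.6%.

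**Figure D1:**
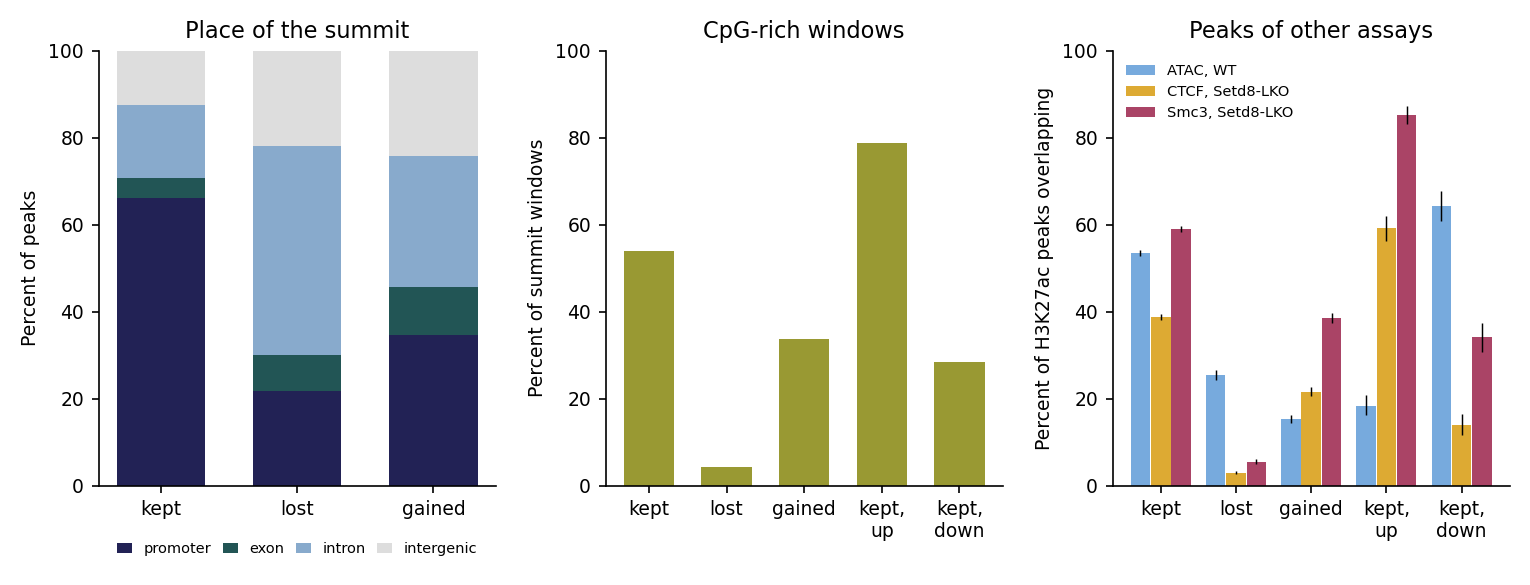
Left, percent of kept WT, lost WT and gained Setd8-LKO H3K27ac peaks by place, assigned by overlap of the whole peak although the panel title names the summit. Middle, percent of windows of 150 bp on either side of the summit with a CpG observed over expected ratio above 0.6. Right, percent of H3K27ac peaks that overlap a peak of another assay, with 95% Clopper-Pearson intervals as error bars. Lost peaks were intronic in 48.0% of cases and poor in CpG (4.41%). Kept peaks whose fold enrichment was up 2-fold were rich in CpG (78.9%) and overlapped Smc3 peaks of Setd8-LKO in 85.3% of cases. For all kept promoter peaks, not drawn, these shares were 75.4% and 79.3%.

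Base composition differed in the same way. Within 150 bp of the summit the median GC content was 63.7% for kept, 47.0% for lost and 52.0% for gained peaks. A CpG observed over expected ratio above 0.6, as in CpG islands, was found at 53.9% of kept, 4.41% of lost and 33.8% of gained summits. Gained promoter peaks were split from the rest of the gained peaks, with 62.5% above that ratio against 18.6% elsewhere. Lost promoter peaks reached 13.8%.

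Short sequence motifs were counted in the same windows on both strands. The letters TGTTTNC, the core of the FOXA motif, were present in 24.3% of lost, 14.2% of kept and 17.1% of gained windows, and in 20.5% of 32851 RefSeq promoters of 300 bases (GRCm38). The C/EBP letters TTGCNNAA were present in 11.7%, 6.68% and 7.91% (RefSeq promoters 10.8%). The STAT5 letters TTCNNNGAA were present in 8.70%, 5.14% and 5.91% (8.30%), and the AP-1 letters TGANTCA in 8.32%, 5.21% and 6.45% (7.81%). The ETS letters CCGGAAG, frequent at CpG-rich promoters, were present in 2.08% of lost, 7.07% of kept and 2.38% of gained windows (8.86%), and at promoters in 3.82%, 9.30% and 3.39%. Away from promoters the FOXA letters were present in 24.7% of lost, 22.4% of kept and 20.0% of gained windows, and at promoters in 22.9%, 9.92% and 11.7%. Overlap between motifs was highest for C/EBP with FOXA, at 2.70% of the WT windows with a C/EBP match. A match is a description of the letters and not a bound site.

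Other chromatin assays of the same study, also with 1 list per condition, were set beside the classes. ATAC-seq peaks of WT liver, which mark accessible DNA, overlapped 53.5% of kept, 25.4% of lost and 15.4% of gained H3K27ac peaks. In the Setd8-LKO ATAC list these shares were 44.6%, 15.7% and 15.9%, lower than in WT for kept and lost peaks and nearly equal for gained ones. The ATAC lists held 27307 peaks in WT and 23386 in Setd8-LKO. The cohesin subunit Smc3 gave another picture. Its Setd8-LKO peaks overlapped 59.1% of kept, 5.48% of lost and 38.5% of gained H3K27ac peaks. At promoters they overlapped 66.3% of the 2450 gained peaks and 79.3% of the kept ones. Its WT peaks overlapped 16.1%, 2.72% and 2.90%. CTCF peaks of Setd8-LKO overlapped 38.8%, 3.03% and 21.6%, and those of WT 5.09%, 0.561% and 1.03%. The Smc3 list held 21615 peaks in Setd8-LKO and 13045 in WT, and the CTCF list 20905 and 5838, so the larger lists also had more chances to overlap. The part of the list size in these shares was not tested. Lamin A/C and H4K20me3 regions overlapped at most 4.95% of any of the 3 classes.

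Pairs of overlapping peaks, 1 per region by the longest overlap, numbered 20165. Their fold enrichments differed little in the middle, with a median log2 ratio of Setd8-LKO over WT of -0.00101 and an SD of 0.595 across pairs. After centring on the median, 1117 pairs were up more than 2-fold (5.54%) and 775 were down more than 2-fold (3.84%), and 90.6% lay between. The maxima were 74.93 in WT and 58.39 in Setd8-LKO. Summits lay 40 bp apart in the median pair, and 85.2% of pairs had summits within 150 bp.

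**Figure D2:**
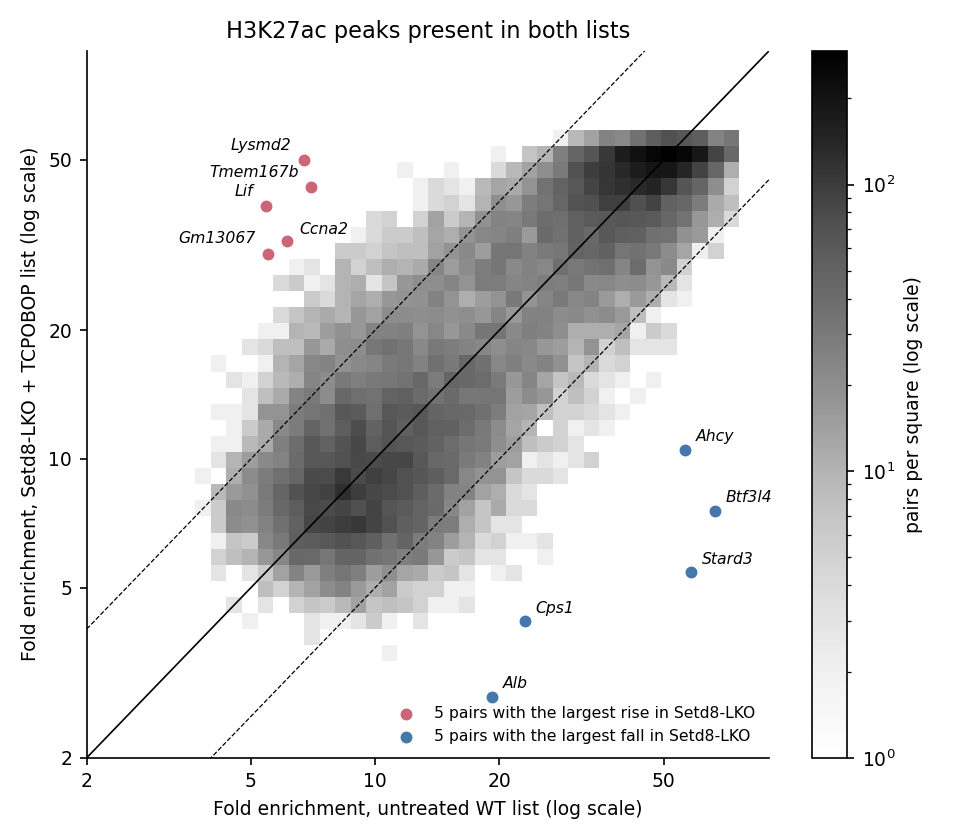
Fold enrichment of 20165 pairs of H3K27ac peaks in WT (x axis, log scale) and Setd8-LKO (y axis, log scale), with shading for the number of pairs per square. The solid line marks equal values and the dashed lines a 2-fold difference, and the 5 pairs with the largest rise and fall are named, from Lysmd2 (6.73 and 49.9) to Stard3 (58.3 and 5.44). In the 5 pairs with the largest fall the WT summit lay outside the Setd8-LKO peak.

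The pairs that were up were mostly promoters (854 of 1117), as were all pairs (13501 of 20165). Among pairs whose WT peak was a promoter peak, 6.33% were up and 2.98% were down. Among intronic pairs 2.48% were up and 5.35% were down. The shares were 8.81% and 5.88% among the 953 exonic pairs, and 3.99% and 5.81% among intergenic pairs. Of the 1117 pairs that were up, 78.9% had a CpG-rich summit, 18.4% overlapped a WT ATAC peak and 85.3% an Smc3 peak of Setd8-LKO. Among all kept promoter peaks of WT these shares were 75.4%, 60.6% and 79.3%. The CpG and Smc3 shares were thus near those of kept promoters, and the ATAC share was lower. Of the 775 that were down, 28.5% had a CpG-rich summit, 64.4% overlapped a WT ATAC peak and 34.1% an Smc3 peak of Setd8-LKO. Pairs that were up were mostly promoters, mostly CpG-rich and mostly not in the WT list of accessible regions, and pairs that were down mostly were in it. Setd8-LKO ATAC peaks overlapped 13.7% of the pairs that were up, 54.2% of those that were down and 50.1% of all kept promoter peaks. The up and down classes use the WT fold enrichment itself, and the part of the WT level in these shares was not tested.

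Peaks were also longer in Setd8-LKO. In 13021 of 20165 pairs (64.6%) the Setd8-LKO peak was the longer one, in 7094 the shorter one, and the median length ratio was 1.07. At least a 2-fold difference was seen for 1694 longer and 694 shorter peaks. The shortest length that a list holds was 191 bp in WT (294 peaks) and 228 bp in Setd8-LKO (316 peaks), and the part of this floor in the length ratio was not tested. Among pairs with both peaks at least 1000 bp long, 58.9% of 4321 were longer and the median ratio was 1.02. Long peaks of 3 kb or more numbered 180 in WT and 245 in Setd8-LKO. In 1485 cases a Setd8-LKO peak joined WT peaks, and in 537 a WT peak was split.

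The longest WT peak spanned 8425 bp at Hs6st1, a heparan sulfate sulfotransferase, and was 4603 bp in Setd8-LKO. The peak near Setd1b, an H3K4 methyltransferase, was 8054 bp in WT and, with 9416 bp, the longest of the Setd8-LKO list. The peak at Cebpa, a factor of hepatocyte differentiation, was 6602 bp in WT and 4057 bp in Setd8-LKO at nearly equal fold enrichment (53.1 and 53.5). Longer peaks in Setd8-LKO were found at a pair of promoters. The peak at Zfp36, which encodes an mRNA decay factor, was 4496 and 9086 bp, and that at Lrp1, a lipoprotein receptor, 2587 and 7934 bp.

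Chromosome X stood apart from the autosomes, most clearly at promoters. On the 19 autosomes the median log2 ratio of fold enrichment ran from -0.0685 on chromosome 14 to 0.0493 on chromosome 19. On chromosome X it was -0.280 over 364 pairs, and 270 of them (74.2%) were lower in Setd8-LKO, against 49.7% of 19800 autosomal pairs. Gained peaks made up 14.4% of Setd8-LKO peaks on X and 21.9% to 28.7% on the autosomes. The numbers of peaks on X were 466 and 432. The X median was -0.31 for promoter pairs alone, -0.28 for pairs of 1 peak with 1 peak and -0.28 at a stricter peak threshold, and under these 3 settings the autosome medians stayed between -0.06 and 0.08. Away from promoters X was close to the lowest autosomes. Its median there was -0.182, and the autosome medians ran from -0.161 on chromosome 16 to 0.0411 on chromosome 11. Among autosomes the ratio of peak numbers ran from 0.928 on chromosome 18 (850 in WT, 789 in Setd8-LKO) to 1.07 on chromosome 7 (1896 and 2034). The input coverage of X was not analysed here.

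**Figure D3:**
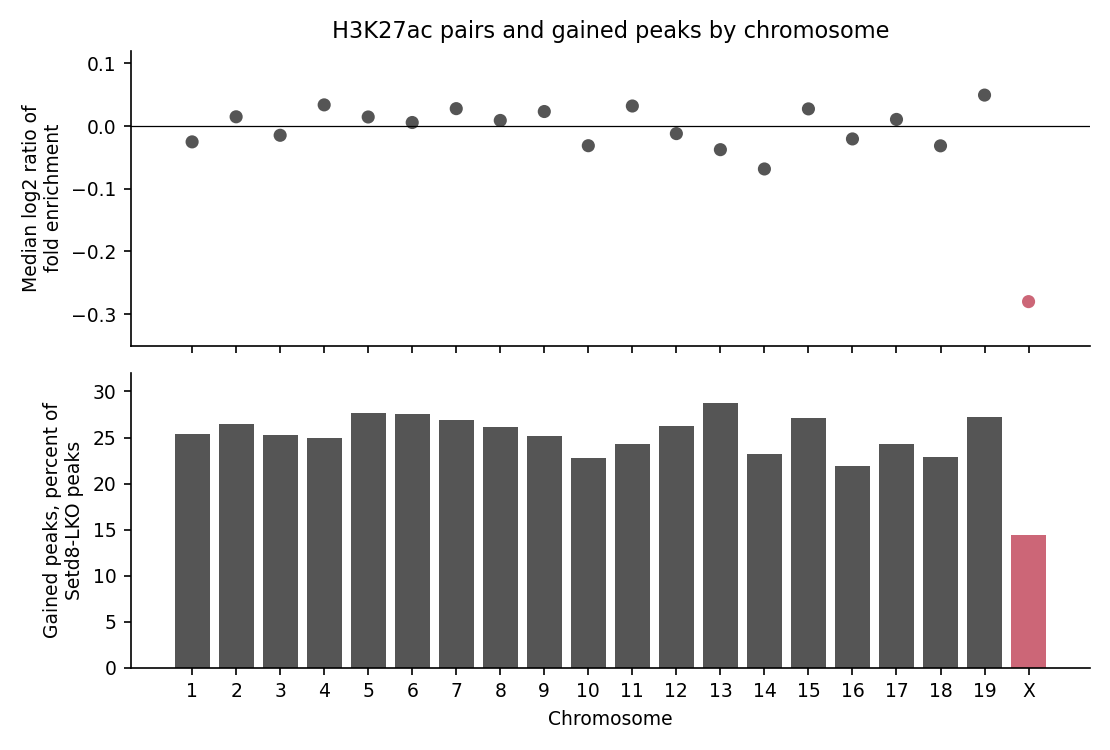
Top, median log2 ratio of fold enrichment (Setd8-LKO over WT) of paired H3K27ac peaks on each autosome and on chromosome X. Bottom, gained peaks as percent of the Setd8-LKO peaks of the same chromosomes. Chromosome Y, with 1 pair, is left out. Chromosome X has the lowest median (-0.280) and the lowest share of gained peaks (14.4%) among the chromosomes plotted.

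The highest gained peaks lay at promoters. The first was the Rap1gap promoter whose sequence is given (fold enrichment 43.3, 818 bp), a GTPase-activating protein of Rap1. It was followed by the promoters of Bmp8b, a BMP ligand, at chr4:123104701-123105688 (36.3) and of Nebl, which encodes the actin-binding protein nebulette, at chr2:17730716-17731494 (36.0). The fourth lay in an intron of the non-coding transcript Gm12811 at chr4:109582730-109583280 (32), and the fifth at the promoter of Spire2, an actin nucleator, at chr8:123332596-123333194 (31.2). None of the 4 promoters overlapped an ATAC peak in either list, while all 4 overlapped an Smc3 peak and 3 a CTCF peak of Setd8-LKO. RNA of all 4 genes rose. Rap1gap had 80, 51, 50, 66 and 62 normalised read counts in the WT libraries and 724, 738, 837 and 941 in Setd8-LKO. Nebl had 28, 16, 22, 13 and 28 in WT and 548, 550, 521 and 382 in Setd8-LKO. The groups did not overlap for either gene, and the log2 fold changes were 3.71 ± 0.18 (SE) and 4.54 ± 0.25. The RNA table holds only genes that the authors selected, and 3651 of the 3726 tested were called. Groups without overlap, here and below, are to be read against that selection, since their share over the table was not counted. Spire2 and Bmp8b rose by 5.06 ± 0.35 and 2.46 ± 0.19 on the log2 scale (adjusted p of the 4 genes from 1.58e-07 to 1.46e-06, edgeR quasi-likelihood test with Benjamini-Hochberg adjustment).

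The highest lost peak lay in the processed pseudogene Gm16464 at chr7:104501896-104502395 (40.2), where reads may be shared with the parent gene. A Lamin A/C region of the WT list overlapped it. The next lay in an intron of Ttc39c at chr18:12637281-12639233 (26.7, 1953 bp), at the promoter of the arachidonic acid epoxygenase gene Cyp2c23 at chr19:44028183-44029289 (26.7), in an intron of Dgat2, which encodes a triglyceride synthesis enzyme, at chr7:99155635-99156394 (26.6), and at an antisense transcript in Acvr2b, an activin receptor gene, at chr9:119408056-119408474 (24.8). RNA of these 4 host genes fell. Ttc39c had 11062 to 14988 normalised read counts in WT (median 11461) and 891 to 1333 in Setd8-LKO. Cyp2c23 had 4401 to 9131 in WT and 1026 to 1208 in Setd8-LKO. Neither pair of groups overlapped, with log2 fold changes of -3.58 ± 0.20 and -2.74 ± 0.23. For Dgat2 and Acvr2b they were -1.75 ± 0.19 and -1.67 ± 0.29 (adjusted p of the 4 genes from 2.95e-07 to 0.000241, edgeR quasi-likelihood test with Benjamini-Hochberg adjustment).

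Among kept pairs the largest rise was at the Lysmd2 promoter, from 6.73 to 49.9 (7.42-fold), followed by Lif, a cytokine of the interleukin 6 family (5.43 and 39.0), Tmem167b (7.0 and 43.2), the non-coding Gm13067 (5.50 and 30.2) and Ccna2, the S phase cyclin (6.11 and 32.4). Lysmd2 RNA was 6 to 28 normalised read counts in WT and 122 to 188 in Setd8-LKO. Lif RNA was listed at 0 in all 5 WT libraries and at 53, 70, 14 and 46 in Setd8-LKO. Ccna2 RNA was 58 to 85 and 279 to 347, a log2 fold change of 2.08 ± 0.17. All 3 rose without overlap between the groups (adjusted p from 2.06e-06 to 0.00015, edgeR quasi-likelihood test with Benjamini-Hochberg adjustment).

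The largest falls in fold enrichment were at the promoter of Stard3, an endosomal sterol-binding protein (58.3 and 5.44), and at the shared promoter of Btf3l4 and Txndc12 (66.7 and 7.57). The third lay 12761 bp before Alb (19.2 and 2.78) and the fourth 6909 bp before Cps1 (23.0 and 4.18). The fifth lay at the promoter of Ahcy, an enzyme of the methionine cycle (56.3 and 10.5). In each of these pairs the WT summit lay outside the paired Setd8-LKO peak, so both values come from different positions. The stretch printed for Stard3 also lies outside that Setd8-LKO peak. Alb encodes serum albumin and Cps1 the first enzyme of the urea cycle. RNA of Alb, Cps1 and Ahcy fell by 1.34 ± 0.30, 1.36 ± 0.21 and 1.42 ± 0.21 on the log2 scale (adjusted p from 9.64e-05 to 0.00133, edgeR quasi-likelihood test with Benjamini-Hochberg adjustment). Alb RNA was 714846, 914210, 984219, 630727 and 1230909 normalised read counts in WT and 350296, 321973, 302416 and 437673 in Setd8-LKO. Every WT library was above every Setd8-LKO library.

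A promoter peak was found for 11741 of 21938 protein-coding genes in both lists, for 208 in WT alone (0.948%) and for 1156 in Setd8-LKO alone (5.27%). The median of the highest promoter fold enrichment was 9.02 for the first of these one-list groups and 9.69 for the second, and 35.6 in WT for genes with a peak in both. When all base pairs under peaks were summed from 10 kb before to 10 kb after each gene, termed covered bp, 10172 genes had more in Setd8-LKO (46.4%) and 4751 had fewer (21.7%), and the median difference over all genes was 0. Those 10172 and 4751 genes are among 14938 with covered bp in either list, whose median difference was 106 bp. Gene lists are read against these shares.

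Cyp2b10, the standard CAR target gene, had no H3K27ac peak in WT and 11 in Setd8-LKO. They ran from chr7:25886878 to 25903513 across the promoter and into the gene, with fold enrichments of 4.80 to 16.3 and 13530 bp under peaks within 16636 bp. A relaxed direct repeat of the half-site AGNNCA with 4 bases between copies, of the kind that CAR and RXR bind, was found 3 times in this span and in 1.82% of kept, 3.06% of lost and 2.19% of gained summit windows and 1.85% of RefSeq promoters. Of these, 2 lay in peaks and 1 lay 2298 bp before the gene start, in the gap between a pair of gained peaks. That gap is printed with the repeat in capitals, on the reverse strand.

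Gap upstream of Cyp2b10, chr7:25895238-25895489: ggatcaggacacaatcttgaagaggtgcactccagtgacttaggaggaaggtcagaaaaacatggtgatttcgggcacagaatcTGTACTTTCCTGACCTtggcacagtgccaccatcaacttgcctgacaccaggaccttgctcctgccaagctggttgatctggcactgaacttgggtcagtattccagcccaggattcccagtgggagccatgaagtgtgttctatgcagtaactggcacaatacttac

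No ATAC peak lay over the gap in either list, and 1 WT and 3 Setd8-LKO ATAC peaks lay over the whole span. Cyp2b10 and the neighbouring Cyp2b genes are near-identical in part, so reads may be shared among them. Cyp2b10 RNA was 28, 25, 70, 28 and 106 normalised read counts in WT and 35767, 31592, 66038 and 55164 in Setd8-LKO. The groups lay far apart, with a log2 fold change of 9.84 ± 0.61 (adjusted p = 4.34e-07, edgeR quasi-likelihood test with Benjamini-Hochberg adjustment). In WT mice given TCPOBOP, whose table holds the same WT libraries, Cyp2b10 RNA was 53827 to 61594.

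The CAR response as a whole gained H3K27ac. Of its 20 genes, 17 had more covered bp in Setd8-LKO and 1 had fewer, with a median difference of 1960 bp, and 4 had a promoter peak in Setd8-LKO alone (Cyp2b10, the aldo-keto reductase gene Akr1b7, the glutathione transferase gene Gsta1 and Cyp2c55). Por, the electron donor of all microsomal P450 enzymes, had 14685 and 25494 covered bp, and Ephx1, microsomal epoxide hydrolase, 4306 and 11477. Por RNA was 5406, 4448, 6942, 6830 and 6358 in WT and 22615, 22887, 31614 and 31018 in Setd8-LKO, without overlap. Akr1b7 RNA was 3 to 12 in WT, 1010 to 1574 in Setd8-LKO and 784 to 1020 in WT given TCPOBOP. Cyp2c55 RNA was 95 to 528, 10499 to 17508 and 12448 to 25050 in the same order, and Ephx1 RNA 5827 to 9459, 14574 to 17900 and 14596 to 19500. H3K27ac was not mapped in WT mice given TCPOBOP. RNA of 17 of the 20 genes rose and of none fell in Setd8-LKO, and the other 3 were not among the listed genes. Among the 3726 listed genes tested, 2178 rose (58.5%) and 1473 fell (39.5%), and the table holds only genes that the authors selected. With size factors set on the listed genes, 981 rose and 1512 fell.

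**Figure D4:**
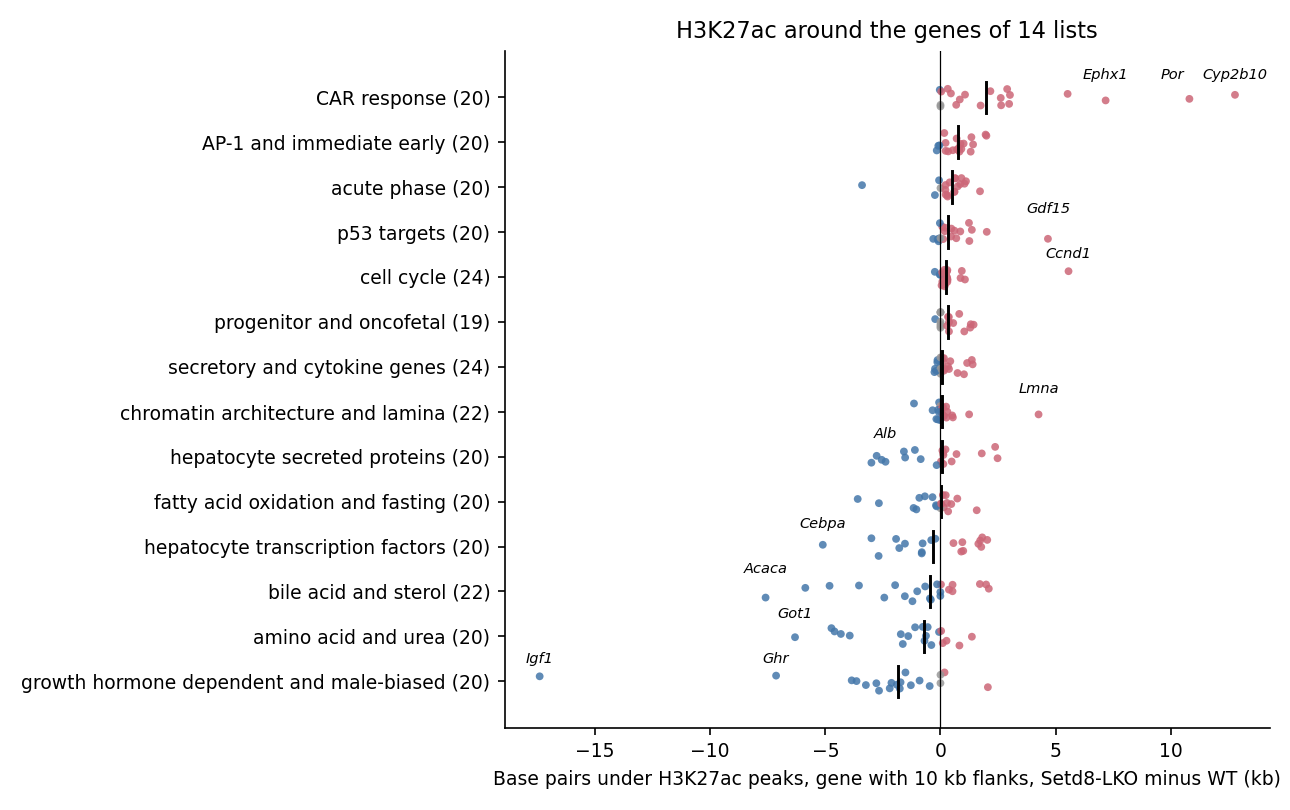
Covered bp of each gene with 10 kb on either side, Setd8-LKO minus WT in kb, for 14 gene lists. Each point is a gene (red more, blue fewer, grey equal), the black bar is the median of the list and the number of genes is in brackets. The CAR response lies to the right with a median of 1960 bp and the growth hormone dependent and male-biased genes to the left with -1830 bp.

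Growth hormone dependent and male-biased genes were at the other end. Of 20 genes, 2 had more and 16 had fewer covered bp, with a median of -1830 bp. Igf1, the growth hormone induced growth factor, had 30 WT peaks with 29462 covered bp and 17 Setd8-LKO peaks with 12058. Ghr, the growth hormone receptor, had 11368 and 4230 bp. Slco1a1, an organic anion transporter of male liver, had a promoter peak of 18.8 in WT and no peak in Setd8-LKO. The 2 with more were Gstp1 (3089 and 5147 bp) and Selenbp2 (2073 and 2249 bp). RNA of 19 of the 20 genes fell, Gstp1 and Selenbp2 included. Igf1 RNA was 8505, 9857, 8725, 6388 and 9045 in WT and 2962, 2648, 3300 and 3225 in Setd8-LKO. Slco1a1 RNA was 6760 to 9968 in WT, 286 to 1045 in Setd8-LKO and 2156 to 3496 in WT given TCPOBOP.

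Genes of amino acid, urea, bile acid and sterol metabolism mostly had less H3K27ac. In the amino acid and urea list 15 of 20 genes had fewer covered bp and 5 had more (median -731 bp), and Sds, Hal and Bhmt had a promoter peak in WT alone. They encode serine dehydratase, histidine ammonia-lyase and betaine-homocysteine methyltransferase. Hal RNA was 11383, 10865, 12426, 6267 and 11905 in WT and 367, 287, 374 and 412 in Setd8-LKO, and RNA of 14 of the 20 genes fell and of none rose. In the bile acid and sterol list 15 of 22 had fewer and 7 more (median -439 bp). Acaca, the rate-limiting enzyme of fatty acid synthesis, had 9723 and 2129 bp, and Cyp8b1, the sterol 12-alpha hydroxylase, 6950 and 1081 bp. Scd1, a fatty acid desaturase, had a promoter peak in WT alone. RNA of 12 of the 22 fell and of 1, the sterol regulator Insig2, rose. For Sds, the difference was -1102 bp with 10 kb flanks and 388 bp with 50 kb flanks.

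Genes of hepatocyte identity were divided in covered bp, while those with an RNA call all fell. Of the 20 hepatocyte transcription factors, all with a promoter peak in both lists, 9 had more and 11 had fewer covered bp. RNA of 3 of them fell, all 3 with fewer covered bp, and the other 17 were not listed. Cebpa had 11895 and 6785 bp and its RNA fell by 2.24 ± 0.28 on the log2 scale, from 6507 to 12061 normalised read counts in WT to 1257 to 2680 in Setd8-LKO (adjusted p = 2.73e-05, edgeR quasi-likelihood test with Benjamini-Hochberg adjustment). Of the 20 secreted proteins of hepatocytes, 11 had more and 9 had fewer. RNA of 8 of these genes fell, 4 with more and 4 with fewer covered bp, and the other 12 were not listed. Alb lost all of its 6 WT peaks, of 7.5 to 21 fold enrichment and 2386 bp in sum, and was the list's only gene with a promoter peak in WT alone. The highest of these lost peaks, with its summit 492 bp from a transcript start, is printed because none of them was called in Setd8-LKO. The reverse complement of TGTTTNC is in capitals.

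Lost peak upstream of Alb, chr5:90460255-90460554: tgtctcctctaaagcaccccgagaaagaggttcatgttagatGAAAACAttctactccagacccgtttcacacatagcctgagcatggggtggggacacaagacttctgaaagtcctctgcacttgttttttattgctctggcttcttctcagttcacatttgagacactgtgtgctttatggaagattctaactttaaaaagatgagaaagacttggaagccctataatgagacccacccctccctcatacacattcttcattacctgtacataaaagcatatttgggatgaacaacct

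The GC content of this stretch was 42.3% and it held 2 CG dinucleotides. It and the gap at Cyp2b10 were chosen after their values were seen. Cells other than hepatocytes are also present in these livers. None of the 12 macrophage and none of the 12 leukocyte markers had a promoter peak in either list, and 3 of 12 endothelial and 3 of 12 stellate markers had one in both. Of the 12 cholangiocyte markers, Cftr, Cldn7 and Krt7 had one in Setd8-LKO alone. RNA of 7 cholangiocyte, 6 stellate, 3 macrophage and 1 leukocyte markers rose and no endothelial marker was listed, and their part in the H3K27ac differences was not tested.

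Cell cycle genes and immediate early genes mostly had more H3K27ac in Setd8-LKO. In the cell cycle list 21 of 24 genes had more and 3 had fewer covered bp, with a median of 238 bp, and Bub1, Plk1, Mcm5, Top2a and Ccnb1, named after their values were seen, had a promoter peak in Setd8-LKO alone. Ccnd1, the G1 cyclin, had 3452 and 9012 bp, and its RNA was 577, 555, 490, 504 and 439 in WT and 7988, 9323, 4450 and 11853 in Setd8-LKO, without overlap. RNA of 18 of the 24 rose and of none fell. Among p53 targets 14 of 20 had more and 5 fewer. Of the 19 with covered bp, that share is near the one of all genes with covered bp (10172 of 14938). Gdf15, a stress-induced cytokine, had 2054 and 6720 bp. Gdf15 RNA was 67 to 167 in WT, 2081 to 3791 in Setd8-LKO and 1271 to 2057 in WT given TCPOBOP. Of the AP-1 and immediate early genes 17 of 20 had more and 3 fewer, and 11 rose in RNA and none fell. Klf6, a zinc finger factor, had 1061 and 3055 bp, and its RNA was 103 to 175 in WT and 731 to 1076 in Setd8-LKO.

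Of 19 progenitor and oncofetal genes found, 11 had more and 1 had fewer covered bp in Setd8-LKO, and 7 had none in either list. Krt7, Krt19, Epcam, Sox9 and Spp1 are also in the cholangiocyte list, in which 7 of 12 genes had more covered bp and RNA of 7 rose, these 5 included, and the part of bile duct cells was not tested. Prom1, a progenitor surface protein, Igf2, Dlk1, Ly6d and Krt7, also named after their values were seen, had a promoter peak in Setd8-LKO alone. Prom1 had 4 peaks in Setd8-LKO, of up to 9.61 fold enrichment, and none in WT, and its RNA was 31, 9, 35, 29 and 57 in WT and 1149, 1565, 387 and 1141 in Setd8-LKO. Igf2bp3, a fetal RNA-binding protein, had a promoter peak of 8.31 in WT and 31.2 in Setd8-LKO, and its RNA was 15 to 46 and 142 to 168. Of the genes of the acute phase 16 of 20 had more and 3 fewer, with no promoter peak in one list alone. Of the secretory and cytokine genes 13 of 24 had more and 5 fewer, with a promoter peak in Setd8-LKO alone at Hgf, which encodes hepatocyte growth factor. Of the 18 with covered bp, that share is near the one of all genes with covered bp (10172 of 14938). Fatty acid oxidation and fasting genes were even, with 10 more and 9 fewer, and Fgf21, a fasting hormone, had a promoter peak in Setd8-LKO alone.

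Kmt5a itself kept its promoter peak (45.7 in WT and 50.6 in Setd8-LKO) and had 2705 and 3949 covered bp. Its RNA was 613, 567, 761, 563 and 715 normalised read counts in WT and 1341, 1465, 1338 and 1313 in the libraries labelled Setd8-LKO, which is higher and goes against the label, but counts over the whole gene do not check the removal of exon 7. Lmna, which encodes lamin A/C, had 2773 and 7032 bp, and its RNA was 673 to 989 in WT and 1681 to 2163 in Setd8-LKO. In the list of chromatin architecture and lamina genes 13 of 22 had more and 8 fewer. Of the 21 with covered bp, that share is near the one of all genes with covered bp (10172 of 14938). The RNA rises of Kmt5a, Lmna, Ephx1, Tbc1d1, Pparg, Insig2 and Pdgfrb had log2 fold changes of 1.08 to 1.65 and were under the threshold with size factors set on the listed genes, which lowered the median gene by 0.82.

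Without regard to lists, the genes with the largest gains in covered bp were, after Gm20388, a read-through model over 73 other genes, Cyp2b10, Tbc1d1 (5787 and 16644 bp), which encodes a regulator of glucose uptake, Por, Mrnip (480 and 10804 bp, in a window shared with Tbc1d9b and Sqstm1), Lima1, Pparg (3546 and 11008 bp), the adipogenic nuclear receptor, Pitpnm2, Alad and Ephx1. The largest losses were at Cmah (30123 and 6945 bp), an enzyme of sialic acid synthesis, Igf1, Zbtb20 (26063 and 9662 bp), a repressor in liver, Adipor2 (17209 and 2070 bp), an adiponectin receptor, Mtss1, Ttc39c, Arid5b, Egfr (13635 and 2846 bp), the epidermal growth factor receptor, Mtus1 and Lpp. Cmah RNA was 4410, 3293, 3915, 4352 and 3350 in WT and 620, 549, 1034 and 658 in Setd8-LKO. Egfr RNA was 12036 to 24441 and 900 to 2580, and Adipor2 RNA 7505 to 12135 and 1834 to 1910, all without overlap. Tbc1d1 RNA was 149 to 273 in WT and 617 to 703 in Setd8-LKO, and Pparg RNA 101 to 198 and 252 to 368.

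**Figure D5:**
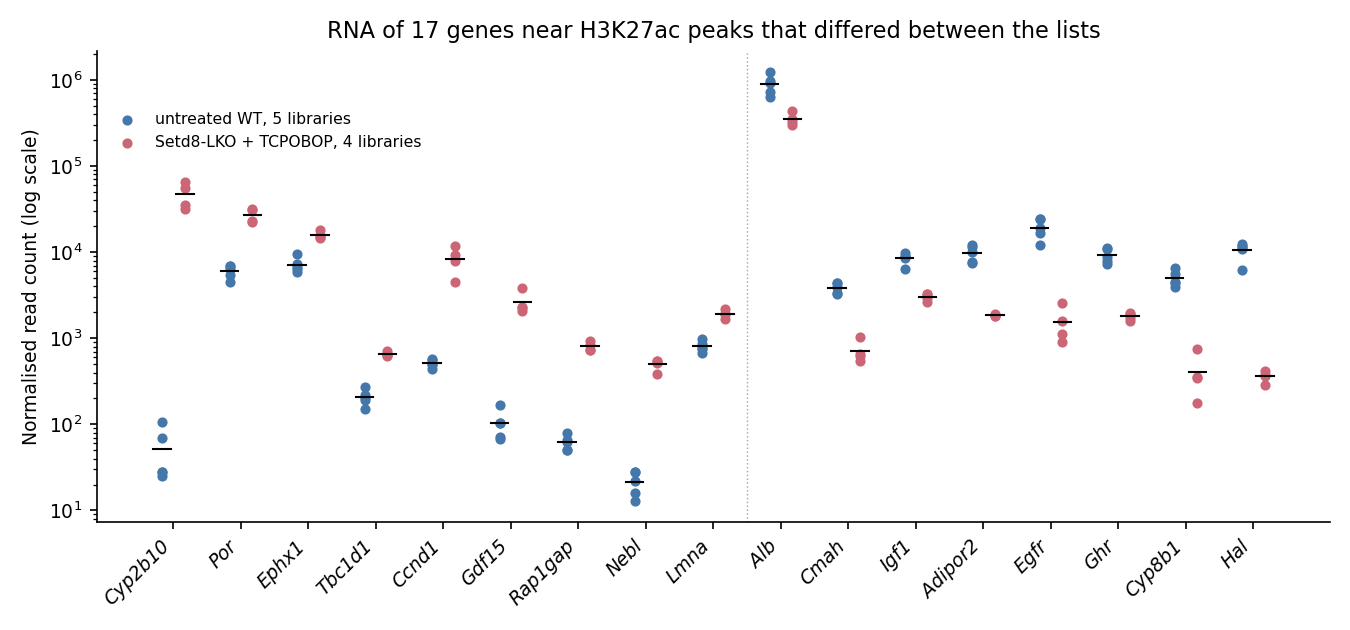
Normalised read count (log scale) of 17 genes in 5 untreated WT libraries (blue) and 4 Setd8-LKO + TCPOBOP libraries (red), with black lines for the means. Left of the dotted line are genes with gained peaks or more covered bp and right of it genes with lost peaks or fewer covered bp. In no gene do the 2 groups overlap, but the RNA table holds only genes that the authors selected, and 3651 of 3726 tested were called.

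RNA and H3K27ac moved in the same direction at most listed genes. Of the 1156 genes with a promoter peak in Setd8-LKO alone, 198 were among the listed protein-coding genes, and 160 of them rose and 23 fell. Of the 208 with a promoter peak in WT alone, 75 were listed, and 19 rose and 52 fell. Among genes with a rise of 1000 covered bp or more, 264 rose and 47 fell, and among those with an equal fall, 10 rose and 297 fell. At a difference of 5000 bp or more, 20 rose and 3 fell among 42 genes with a rise in covered bp, and none rose and 30 fell among 46 genes with a fall. Over all listed protein-coding genes 1762 rose and 1058 fell. A promoter whose highest fold enrichment was up 2-fold was found for 656 genes, of which 239 rose in RNA and 11 fell, and one that was down 2-fold for 253 genes, of which 7 rose and 44 fell. Genes that were not listed have no RNA value here, and the labels do not tie the RNA libraries to the livers used for H3K27ac.

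Read from the RNA, 1287 of 1762 genes that rose (73.0%) had more covered bp and 156 had fewer (8.85%). Of the 1058 genes that fell, 643 had fewer (60.8%) and 277 had more (26.2%). For the protein-coding genes that were not listed these shares were 45.0% more and 20.7% fewer.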

How the data were processed

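H3K27ac ChIP-seq was performed on whole liver, with 3 libraries and 2 inputs per condition. Per the labels and methods, the authors trimmed the reads with Trimmomatic 0.39, aligned them with HISAT2 to mm10, filtered duplicate, low-quality and blacklisted alignments, reduced libraries in proportion to the smallest one and called peaks with MACS2 2.2.7.1. Reducing reads evens depth, so low peaks depend on the library with the fewest reads, whose depth is not known from the lists. The deposited fold enrichment (ratio) and −log10 p are those of MACS2, 1 list per condition, and how the 3 livers were pooled is not given in the sources used here. Library numbers are consecutive between conditions in 3 pairs, and the lists cannot be split by them. Lamin A/C and H4K20me3 islands were called by the authors with SICER2 and deposited with an island score, of which the positions alone were used.

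Peaks sharing 1 bp or more were matched in Python 3.11.15, numpy 2.4.6, pandas 2.3.3 and scipy 1.17.1, and annotated with GENCODE M21. A promoter was within 1000 bp of a transcript start, and 8 WT and 11 Setd8-LKO peaks lay off the chromosomes. Motifs were counted 150 bp on either side of summits. Stretches annotated as untranslated were left out of printed sequences. The matching was checked on simulated lists.

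For RNA-seq the authors filtered, aligned and counted reads and deposited raw and normalised counts of the 3900 genes they selected, so column sums (11238950 to 12780869 in WT, 5734065 to 8231255 in Setd8-LKO) are not depths and adjusted p-values cover listed genes alone. Their fold change and FDR columns and 114 transformed columns were not used. Raw counts of 5 untreated WT and 4 Setd8-LKO + TCPOBOP libraries were compared in edgeR 4.0.16 under R 4.3.3 (quasi-likelihood, filterByExpr minimum count 10, the authors' scaling factors, Benjamini-Hochberg), called where the adjusted p was under 0.05 and log2 fold change was 1 or more in either direction. On simulated data for this comparison, 195 of 200 changed genes were found and 14 unchanged genes were called among 3184 genes. DESeq2 1.42.0 served an alternative. P-values measure the spread between these libraries, which the labels do not tie to animals.

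Named are the 10 protein-coding genes with the largest rise and fall of covered bp, the 2 with the largest rise and fall in each gene list or, where these were at most 4, its members with a promoter peak in one list alone, Kmt5a, the 5 gained and lost peaks of highest fold enrichment, the 5 kept pairs with the largest rise and fall, and the 3 longest peaks of each list. RNA is given for these where the table lists them. Peaks and gene lists were chosen with earlier results of these data known. A gene that this rule names is not reported here.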

Additional observations from a re-analysis of the deposited data

Results flagged for a closer look

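The RNA of 51 named genes was searched for libraries far from the others of their group by Dixon's ratio, in 101 groups of 4 or 5 libraries. Chance flags about 1 in 20 groups, and 9 were found. Among Setd8-LKO + TCPOBOP libraries, replicate 2 was highest for Acaca (970, the others 784 to 809), Adipor2 (1910, the others 1834 to 1844) and Akr1b7 (1574, the others 1010 to 1089). Replicate 3 was highest for Bmp8b (670, the others 515 to 527), Gdf15 (3791, the others 2081 to 2318) and Slco1a1 (1045, the others 286 to 385). Among untreated WT libraries, replicate 3 was highest for Arid5b (2641, the others 960 to 1307) and replicate 2 for Pparg (198, the others 101 to 125), and replicate 4 was lowest for Hal (6267, the others 10865 to 12426). All values are normalised read counts. Without WT replicate 3 the log2 fold change of Arid5b was -0.88, under the threshold of 1.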

How the results depend on the processing

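A pair of settings moved the number of gained peaks from 7073 by more than 1.5 times, to 4705 among the top 20000 peaks of each list and to 4440 after merging peaks within 1000 bp, while the gained share was 23.5% and 21.7%. The share of longer pairs, 64.6%, was 63.6% for one-to-one pairs, 63.2% for merged peaks and, in a setting chosen after seeing the data, 58.9% for pairs with both peaks at least 1000 bp. Setd8-LKO had more peaks than WT on 6 of 20 chromosomes, and on 20 after merging. With DESeq2 size factors over the listed genes, 981 genes rose instead of 2178, since the median gene was lowered by 0.82 (log2), and 1512 fell instead of 1473. Covered bp of Sds turned from -1102 to 388 with 50 kb flanks. Leaving out 1 library at a time gave 2016 to 2210 genes that rose and 1391 to 1482 that fell. Of the counts and shares compared under these and the other alternatives, 54 values stayed within their limit (1.5 times for a count) and 7 moved. Covered bp of single genes depended more on the window. Of 65 named genes with a difference of 1000 bp or more, 29 moved by over 1.5 times with the gene body alone, 17 with 50 kb flanks and 2 at −log10 p of at least 20, and Sds alone changed sign. For Cyp2b10 the gene body alone gave 4696 bp instead of 12788, and for Alb -924 instead of -2386.

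With the replicate number as a block (numbers 1 to 4), 2100 genes rose and 1360 fell, against 2135 and 1391 without the block in the same libraries, a setting added after seeing the data. Same-numbered libraries did not deviate together (correlations -0.00697, -0.113, -0.155 and 0.0656), so the numbers do not pair the livers. With the series of library numbers as a term, 2116 rose and 1367 fell. The peak lists pool livers, so leaving one out was not possible there. The cause of these shifts was not tested.

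The main limits are 1 list per condition, with no replicate spread for any H3K27ac value, genotype and treatment changing together, and lost or gained peaks that lie mostly at low fold enrichment, where calling depends on depth. RNA values exist for selected genes alone.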
